A study of Mus musculus with 12 samples.

Results

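The course of gene expression between postnatal days 14 and 17 (P14 and P17) was followed in retinas of mouse pups with oxygen-induced retinopathy (OIR). All single-cell libraries labelled OIR at either day were chosen, 8 of the 12 libraries matched in the series, with 17263 of 24772 cells kept. They comprise, at P14, 2 libraries of rod-depleted retina and 3 of whole retina, and, at P17, 1 library of rod-depleted retina and 2 of whole retina. All pups were C57B6. The OIR pups of both ages had been kept in 75% oxygen from P7 to P12 and then returned to room air with a foster mother, so that the P14 animals were measured 2 days and the P17 animals 5 days after the return. The 4 room-air libraries (NORM, 1 for each age and fraction) came from pups raised with their own mother, so oxygen and fostering cannot be told apart in any OIR against NORM value. The labels do not say how many pups went into a library. P-values therefore rest on the spread between libraries, which may in part be technical.

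In this model high oxygen stops the growth of the retinal vessels and prunes those already formed. After the return to room air the avascular retina is hypoxic, hypoxia-inducible factors (HIF) switch on glycolytic and angiogenic genes, and new vessels sprout abnormally before the retina revascularises. Müller glia, which span the retina and recycle glutamate, are a main source of the growth factor VEGF and become reactive; microglia, the resident macrophages, gather at the new vessels.

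Drop-seq tags each RNA molecule with a unique molecular identifier (UMI), and levels below are mean UMIs per 10000 UMIs of the cells of a class, by library. Cells were clustered and each cluster was named by markers (for example Rlbp1 and Glul for Müller-like cells, Ctss and C1qa for microglia-like cells), since no deposited annotation was used here. Of the 26 clusters, 4 stayed unnamed. The class called microglia-like was named by markers of microglia and macrophages together, without separating them. A gene was called when limma's adjusted p for P17 against P14, with the fraction in the model, was under 0.05. The fit draws each gene's spread toward a trend over all genes of the class. In ganglion-like and microglia-like cells that trend nearly replaced the gene's own spread, so p-values there hardly measure it. Differences are on the scale log2(level + 0.2). In simulated libraries the test recovered 6% to 9% of 2-fold changes in Müller-, bipolar-, rod- and ganglion-like cells. In microglia-like cells it recovered 0% of 2-fold and 0% of 4-fold changes. A gene without a call may therefore still have changed.

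Some libraries stood apart. Lens crystallin RNA summed to 20.4 and 20.8 per 10000 in whole-retina replicates 2 and 3 of OIR P14, and to between 0.092 and 0.31 in the other libraries. The median UMIs per deposited cell were 1710 and 1794 in the P17 OIR whole-retina libraries against 614 to 814 at P14, and only 304.5 in the NORM P17 whole-retina library. The columns used for NORM P14 whole retina carry replicate number 8 where the label has 1. In them 6 genes were far below the level of every other library, against 0 such genes in any other library, so values against this library carry that doubt. No sequencing run held OIR libraries of both ages, so run and age cannot be told apart. Haemoglobin RNA in the OIR libraries ranged from 0.096 to 16.4 per 10000 at P14 and from 10.8 to 29.7 at P17. Xist was near 0 in some libraries of both ages and between 20 and 38 in the others. Only 14 cell barcodes were shared by 2 or more libraries.

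In Müller-like cells 10 genes of the hypoxia and HIF list lay above NORM in every OIR library of P14, and 8 of these also did so in every library of P17, while a small set of other genes changed between the days. Over all 7404 genes, 5.02% lay above NORM in this way at P14 only and 3.31% at both days. With the OIR mean required to exceed NORM by more than 1 on the log2 scale in each fraction, 3 hypoxia genes passed at both days. Among all 7404 genes 9 did so. Of 7404 genes tested, 11 rose (0.149%) and 7 fell (0.0945%) by P17, with 798 at an unadjusted p under 0.05. None of the 25 tested genes of the hypoxia and HIF list (30 genes listed) was called, 15 were higher and 10 lower, and their median difference was 0.08, against 0.01 for all genes.

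Ndufa4l2, a HIF target that restrains mitochondrial complex I, had levels of 6.70 and 12.1 in the rod-depleted P14 libraries and 18.2 at P17, and of 12.1, 9.33 and 7.09 in the whole-retina P14 libraries and 5.17 and 9.06 at P17. Every one of these lay above the NORM libraries, which ranged from 0.62 to 1.04. The ages overlapped in whole retina but not in rod-depleted retina, and the difference was 0.08 ± 0.29 (SE, 5 against 3 libraries; limma adjusted p = 0.96).

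Adm encodes adrenomedullin, a peptide that acts on vessels. It measured 1.26 and 3.45, then 3.72, in rod-depleted retina, and 2.69, 1.47 and 0.74, then 1.43 and 2.47, in whole retina. NORM values were 0.402 and 0.0621 at P14 and 0 in both P17 libraries, of which the whole-retina one held only 27106 UMIs in this class. The difference between the ages, 0.49 ± 0.34 (limma adjusted p = 0.66), was within the spread of the libraries.

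Vegfa, the main angiogenic factor of the hypoxic retina, had 15.9 and 14.5 at P14 and 25.8 at P17 in rod-depleted retina. In whole retina it had 13.9, 16.7 and 13.8 at P14 and 23.6 and 20.4 at P17. All P17 libraries lay above all P14 libraries, yet the difference of 0.63 ± 0.19 did not pass (limma adjusted p = 0.21). By the weaker rule of no overlap within each fraction, the ages were apart in this direction for 6.65% of all genes. In NORM, Vegfa was 7.64 and 12.7 at P14 and 6.44 and 4.16 at P17. Apln, the peptide ligand of the apelin receptor, had 2.4 and 1.64, then 0.879, in rod-depleted retina and 2.28, 1.12 and 1.35, then 1.68 and 0.737, in whole retina. Its ages overlapped in whole retina (difference −0.60 ± 0.29, limma adjusted p = 0.45), and NORM stayed at or below 0.394.

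**Figure D1:**
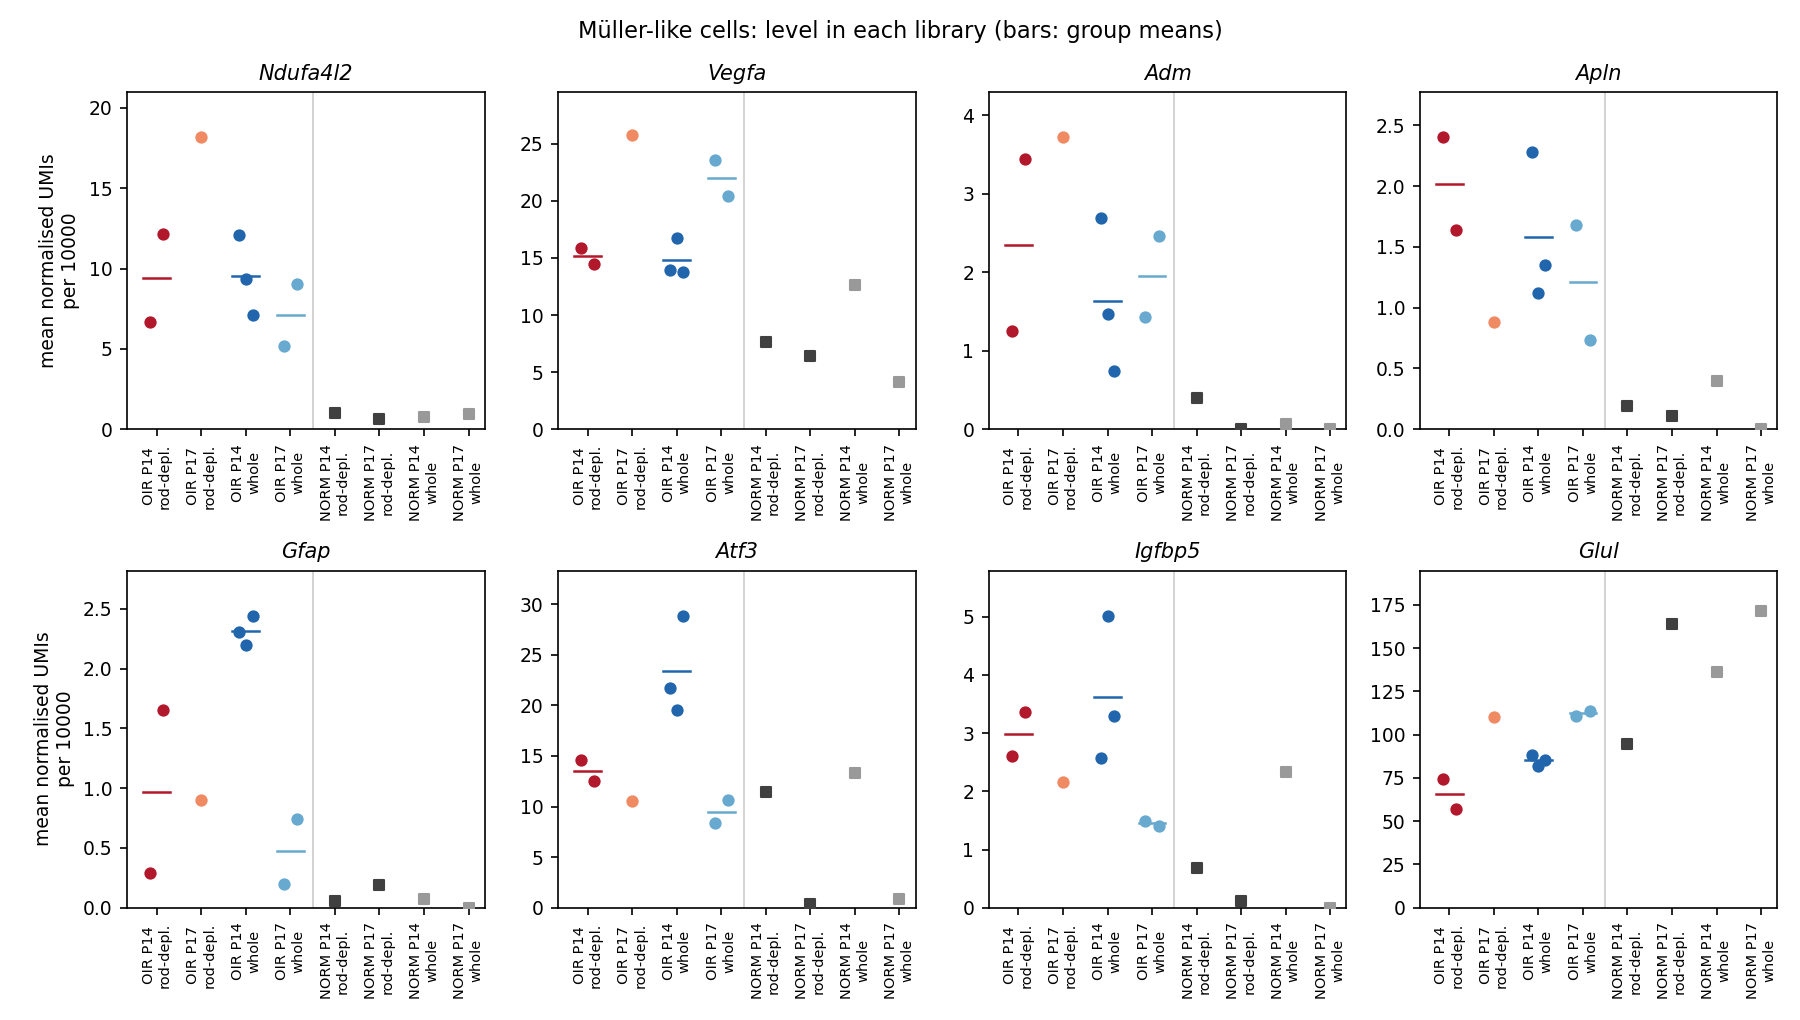
Levels of 8 genes in Müller-like cells, as mean normalised UMIs per 10000, with 1 point per library (circles OIR, squares NORM) and a bar at the mean of each group of more than 1 library. Vegfa reached 20.4 to 25.8 in the P17 OIR libraries against 13.8 to 16.7 at P14, and Atf3 in NORM was 0.343 and 0.839 at P17 against 11.5 and 13.3 at P14.

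Genes of reactive gliosis were mostly lower at P17, without a call. Of 16 tested genes on that list, 5 were higher and 11 lower (median −0.26). Gfap, the intermediate filament of reactive glia, had 2.31, 2.20 and 2.44 in the whole-retina P14 libraries and 0.199 and 0.746 at P17. In rod-depleted retina it had 0.291 and 1.65 and then 0.901. The ages were apart in whole retina and overlapped in rod-depleted retina (joint difference −1.23 ± 0.42, limma adjusted p = 0.27), and the difference between the fractions' courses, tested in an analysis added after seeing the data, was not called (−2.24 ± 0.75, limma adjusted p = 0.48). The protease inhibitor A2m gave 0.00 ± 0.32 and the matrix protein Fn1 −0.33 ± 0.31, both with overlapping ages in each fraction. The stress protein Nupr1 had 1.16 and 2.17, then 3.60, in rod-depleted retina and 5.48, 2.22 and 1.83, then 1.08 and 1.91, in whole retina, so that its courses had opposite signs (1.09 and −0.89; −0.18 ± 0.37 jointly). All 3 lay above their NORM library in every OIR library.

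Atf3, a stress-induced transcription factor, was lower in each P17 library: 14.6 and 12.5, then 10.5, in rod-depleted retina, and 21.7, 19.5 and 28.9, then 8.38 and 10.6, in whole retina. The difference of −0.94 ± 0.23 missed the threshold (limma adjusted p = 0.11), as did that of Igfbp5, a binding protein of insulin-like growth factors (−0.90 ± 0.25, limma adjusted p = 0.18). Igfbp5 measured 2.60 and 3.36, then 2.16, in rod-depleted retina and 2.56, 5.02 and 3.29, then 1.5 and 1.41, in whole retina, again with no overlap. For 5.54% of all genes the ages were apart in this direction. On the list of p53, apoptosis and senescence genes 13 of 14 tested genes were lower and 1 was higher (median −0.44), with no call.

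Among the genes that rose was Apoe, the lipid carrier of glia. It had 123 and 93.2 at P14 and 193 at P17 in rod-depleted retina, and 82.8, 60.0 and 92.9, then 174 and 189, in whole retina (1.09 ± 0.20, limma adjusted p = 0.026). NORM Apoe was 150.2 and 111 at P14 and 106 and 141 at P17, in each case below the OIR P17 libraries of the same fraction. H2-D1, a class I antigen-presenting molecule, rose from 1.33 and 1.03 to 3.06 and from 0.502, 0.935 and 0.92 to 1.92 and 2.20 (1.24 ± 0.24, limma adjusted p = 0.034). NORM H2-D1 was 0.781 and 0.236 at P14 and 0.991 and 0.745 at P17.

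Slc38a3 (a glutamine transporter, 1.24 ± 0.23) and Prodh (proline dehydrogenase, 1.29 ± 0.26) also rose, as did the transcription factor Srf (1.35 ± 0.26) and the ion-pump regulator Fxyd6 (1.33 ± 0.24). So did the actin-binding Coro1b (1.43 ± 0.30) and the ataxin-2-like gene Atxn2l (1.38 ± 0.24). In rod-depleted and whole-retina NORM, Prodh went from 0.66 to 2.71 and from 0.503 to 4.17. Fxyd6 went from 7.89 to 12.2 and from 0.897 to 10.4 there, and Slc38a3 from 8.90 to 12.4 and from 5.47 to 5.27. Srf went from 2.28 to 1.85 and from 1.88 to 0, Coro1b from 1.43 to 2.14 and from 1.28 to 0.51. Atxn2l went from 1.24 to 1.24 and from 0.812 to 0.31. In OIR the red-cell gene Hbb-bs, a haemoglobin, rose too (2.17 ± 0.45). The summed haemoglobin level in this class was 0.912 and 10.5 at P14 and 31.8 at P17 in rod-depleted OIR retina. Apoe was the only one called of 19 tested homeostasis genes, 13 of which were higher (median 0.32). Glutamine synthetase, Glul, measured 74.3 and 56.9, then 109.9, and 88.5, 82.1 and 85.5, then 111 and 114; its ages did not overlap, but the difference of 0.52 ± 0.19 was not called (limma adjusted p = 0.30), and the NORM P17 libraries were higher still, at 164 and 171.

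Of the genes that fell, Ifrd1, a transcriptional co-regulator, went from 3.12 and 4.47 to 0.813 and from 3.81, 5.93 and 5.49 to 1.53 and 2.15 (−1.58 ± 0.24, limma adjusted p = 0.015). It was called in 7 of the 8 fits that left out 1 library. In NORM it had 6.06 and 5.39 at P14 and 0.484 and 0.42 at P17. Id2, an inhibitor of differentiation factors, went from 22.0 and 24 to 11.1 and from 11.6, 16.1 and 15.3 to 5.57 and 5.22 (−1.25 ± 0.20, limma adjusted p = 0.015). Its NORM levels were 23.1 and 17.2 at P14 and 8.16 and 11.1 at P17. Tiparp (an ADP-ribosyltransferase, −1.49 ± 0.24), the nuclear receptor Nr4a3 (−1.67 ± 0.31) and the matrix protein Itih5 (−1.35 ± 0.24) also fell. The microtubule proteins Dclk1 (−1.45 ± 0.29) and Map1b (−1.36 ± 0.25) completed the 7. In rod-depleted and whole-retina NORM, Tiparp went from 2.21 to 0.0549 and from 1.87 to 1.03. Nr4a3 went from 2.47 to 0.0698 and from 2.59 to 0 there, and Itih5 from 0.32 to 0.33 and from 1.08 to 0. Dclk1 went from 0.778 to 0.391 and from 1.07 to 0.343, and Map1b from 1.29 to 0.735 and from 2.38 to 1.29.

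**Figure D2:**
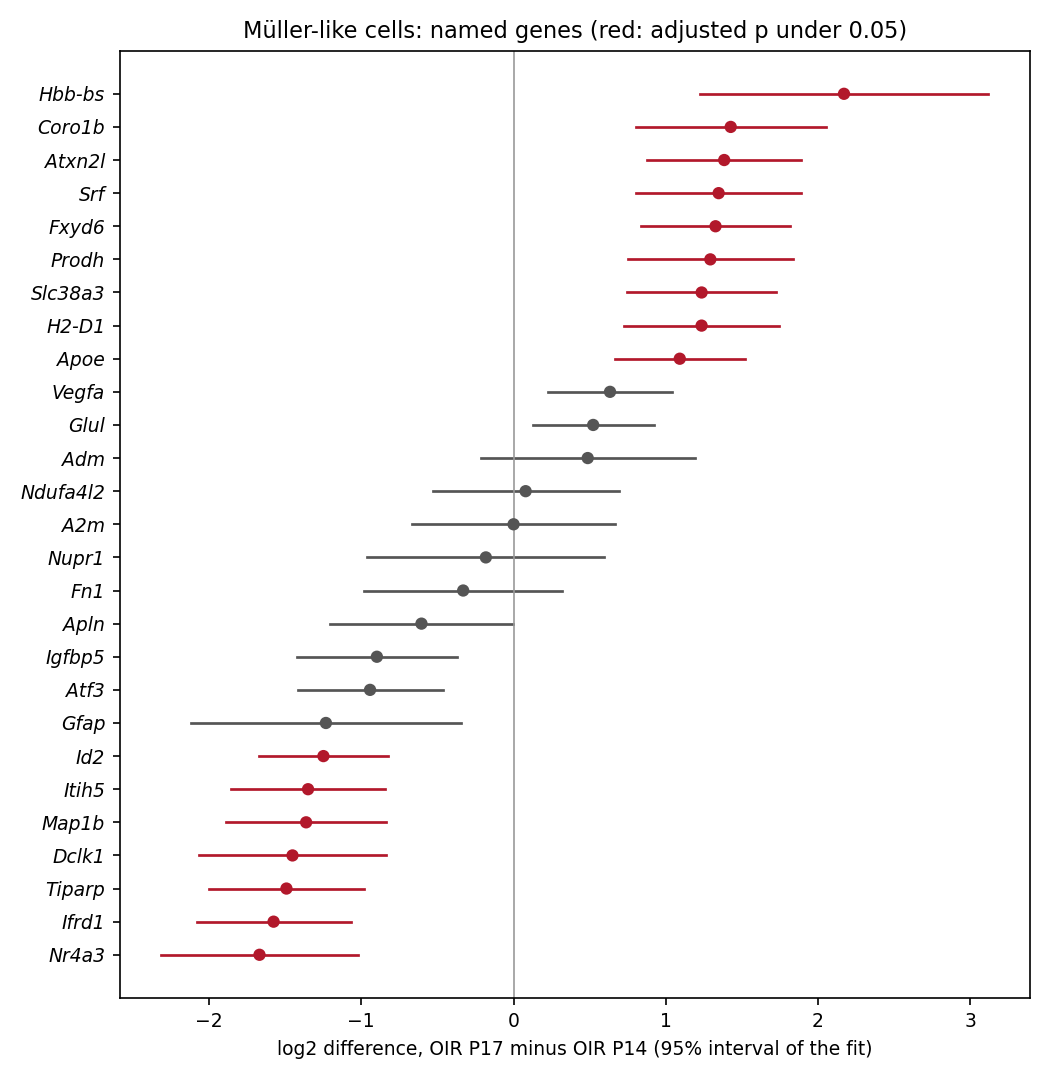
Log2 differences of the named genes in Müller-like cells, OIR P17 minus OIR P14, with the 95% interval of the limma fit over 5 and 3 libraries, red where the adjusted p was under 0.05. Of the hypoxia genes, none of which was called, Ndufa4l2 (0.08) lies near 0, Adm (0.49) and Vegfa (0.63) above it and Apln (−0.60) below it. They lie between called genes that rose, such as Apoe (1.09), and called genes that fell, such as Ifrd1 (−1.58).

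The number of Müller calls rested on a few libraries. The 18 calls became 0 without P17 whole-retina replicate 1, 1 without replicate 2, 34 without the P17 rod-depleted library, 44, 8 and 2 without P14 whole-retina replicates 1, 2 and 3, and 0 without both libraries with lens RNA. Of the Müller-like cells of P17, 95.5% in whole retina but 59.4% in rod-depleted retina lay in the larger of 2 clusters, against 76.1% and 77.2% at P14. RNA of other cells also varied in this class: rod markers summed to 54.1, 13 and 24 at P14 and 17.5 and 21.3 at P17 in whole retina, and its part in these differences was not tested.

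To sort injury genes into those that faded, persisted or appeared late, each OIR library was set against the NORM library of its own age and fraction. A gene persisted when all OIR libraries of both days lay above, faded when this held at P14 only, and was late when it held at P17 only. This is a description, as there was 1 NORM library in each cell of the design. Of 199 tested injury-list genes in Müller-like cells, 18 faded (9.05%), 27 persisted (13.6%) and 66 were late (33.2%), against 5.02%, 3.31% and 26.6% of all 7404 genes. On the hypoxia list Bnip3, a mitophagy receptor, and Slc2a1, a glucose transporter, faded. Vegfa, Adm, Apln, Ndufa4l2, the prolyl hydroxylases Egln3 and P4ha1, Ero1l and Ndrg1 persisted. Ddit4, P4ha2, Hk2, Mxi1, Loxl2, Bhlhe40 and Pfkfb3 were late. On the gliosis list Vim and S100a6 faded and Gfap, A2m, Osmr and Timp1 persisted.

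The late label depended on what NORM did. Of 20 tested immediate early genes, transcripts induced within minutes of a stimulus or of handling, 14 were late and 1, Atf3, persisted. Their summed level in OIR was 607 and 552, then 551, in rod-depleted retina and 452, 455 and 508, then 456 and 420, in whole retina. In NORM it was 543, then 342, and 505, then 276, so that the step down by P17 was larger in NORM; this sum was not tested. The NORM P17 whole-retina library held only 46 Müller-like cells.

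The difference between the OIR course and the NORM course was tested as an interaction. In Müller-like cells 5 of 7396 genes were higher in OIR (0.0676%) and none lower: Socs3 (3.73 ± 0.47), which restrains cytokine signalling, Maff (3.75 ± 0.61), a small Maf factor, Atf3 (3.12 ± 0.40), Ddit3 (2.54 ± 0.40), a stress-response factor, and Coq10b (2.73 ± 0.44), a coenzyme Q-binding protein. Socs3 in OIR had 5.87 and 12.5, then 10.6, in rod-depleted retina and 3.83, 2.88 and 3.10, then 4.77 and 4.47, in whole retina. In NORM it had 9.64, then 0.399, and 2.37, then 0.225. None of the 5 passed the test of P17 against P14 within OIR; the calls came with a lower level in NORM at P17. Without the NORM P17 rod-depleted library 1667 genes were called.

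**Figure D3:**
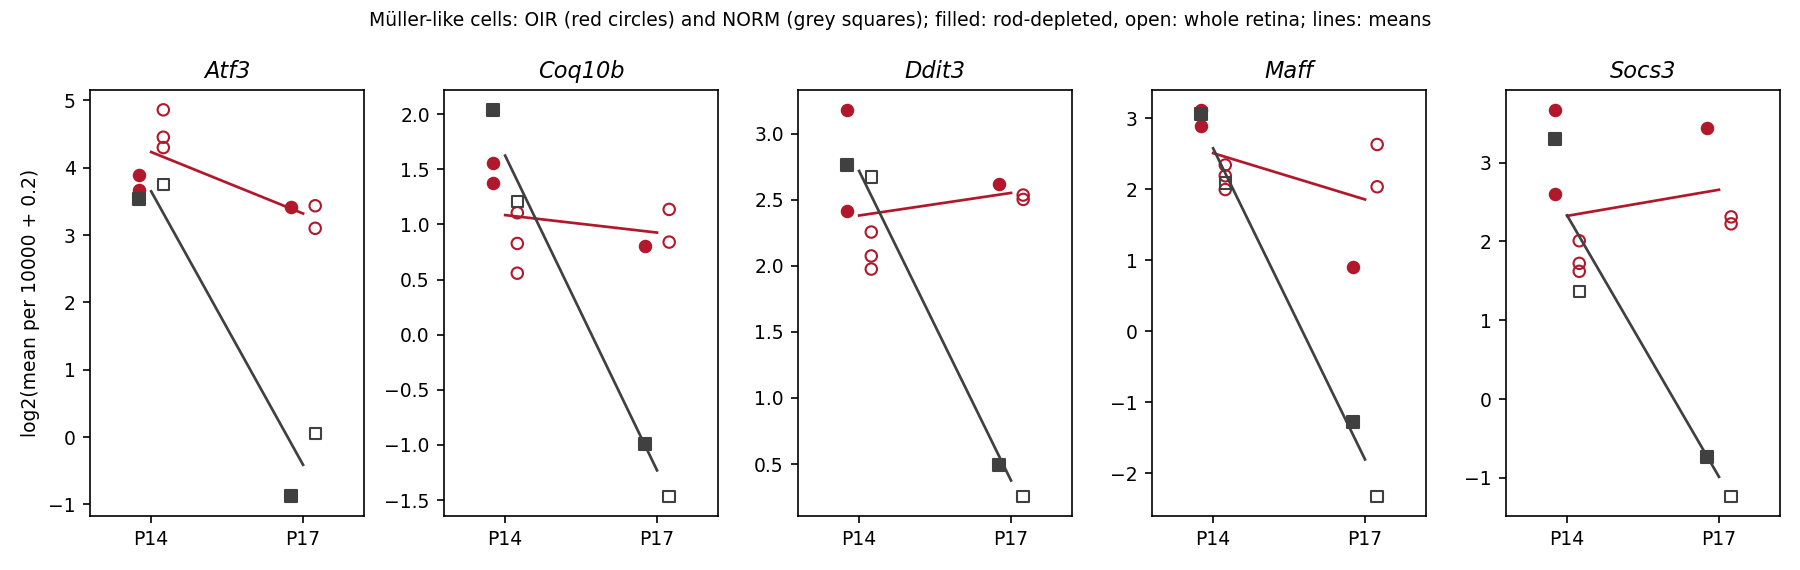
Level on the scale log2(mean per 10000 + 0.2) in Müller-like cells at P14 and P17 for the 5 genes whose courses differed, 1 symbol per library, with lines joining the means of the OIR (red) and of the NORM libraries (grey). Socs3 in NORM was 0.399 and 0.225 at P17 while the OIR libraries had 4.47 to 10.6.

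Rod bipolar-like cells, the interneurons that carry rod signals, and cone bipolar-like cells held many of the genes that were higher in OIR than in NORM over both days: 29 of the genes tested in rod bipolar-like cells (0.418%), 13 in cone bipolar-like cells (0.165%) and 16 in Müller-like cells (0.216%). Of the 29, 25 persisted, Ldha, Mt1 and Mt2 faded and Aldoc was late. Their median P17 minus P14 difference was −0.61 in whole retina and 0.05 in rod-depleted retina, against 0.08 and 0.03 for all genes. All 13 of cone bipolar-like cells persisted, with medians of −0.54 and 0.02, and of the 16 of Müller-like cells 15 persisted and Loxl2 was late (−0.39 and 0.06). These genes were chosen for being above NORM over both days in the same libraries. The counts that persisted therefore follow largely from the choice, and the values only describe their course. Among all genes 4.34% persisted in rod bipolar-like, 2.5% in cone bipolar-like and 3.31% in Müller-like cells.

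No gene was called between the days in rod bipolar-like cells (0 of 6978 by limma, with 576 at an unadjusted p under 0.05). Hk2, the hexokinase induced by hypoxia, had 1.16 and 1.15, then 1.23, in rod-depleted retina and 1.94, 1.99 and 0.948, then 0.391 and 0.625, in whole retina. It was thus lower at P17 in whole retina only (−0.83 ± 0.31 jointly, limma adjusted p = 0.50), and NORM stayed at or below 0.0929. The NORM P17 whole-retina value was 0 among 59982 UMIs of the class, so a low level of Hk2 could be missed there. Bnip3 had 9.34 and 8.90, then 11.5, and 12.6, 8.87 and 8.34, then 3.99 and 4.85 (−0.60 ± 0.26, limma adjusted p = 0.58). Lactate dehydrogenase A, Ldha, had 11.7 and 15.6, then 14.0, and 14.1, 12.5 and 14.3, then 6.35 and 9.78 (−0.48 ± 0.22, limma adjusted p = 0.60). For Bnip3 and Ldha, too, the ages were apart in whole retina and not below P14 in rod-depleted retina.

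By fraction, the course of Hk2 was −1.33 in whole retina and 0.07 in rod-depleted retina, that of Bnip3 −1.12 and 0.33, that of Ldha −0.77 and 0.05, and that of the phosphofructokinase Pfkp −0.61 and 0.46. The difference between the fractions' courses was tested in an added analysis, chosen after seeing the data, and called no gene in this class (0%). Signs were opposite in the fractions for 48.3% of all genes in rod bipolar-like cells. The P17 whole-retina cells of the class were deeper, with medians of 2493 and 2092 UMIs against 1352, 975.5 and 815 at P14, and 94.6% of them lay in one of 2 clusters against 61.4% at P14. In rod-depleted retina the medians were 965.5 and 940 at P14 and 945 at P17. The part of depth in the whole-retina course was not tested for single genes.

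Over the lists, the 23 tested hypoxia genes had a median of −0.18 in whole retina and 0.07 in rod-depleted retina. The 20 glycolytic genes had −0.31 and 0.06, 10 being higher and 10 lower jointly. Of 30 nuclear genes of the respiratory chain, 27 were higher and 3 lower, with medians of 0.40 and 0.05, and none was called. Of 131 injury-list genes tested here, 18 faded (13.7%), 21 persisted (16.0%) and 35 were late (26.7%), against 3.64%, 4.34% and 31.3% of all genes.

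In cone bipolar-like cells 3 metabolic genes were lower in every P17 library of their fraction. Pdk1, a kinase that inhibits pyruvate dehydrogenase, had 1.64 and 0.885, then 0.571, and 1.74, 1.2 and 1.45, then 0.624 and 0.527 (−1.01 ± 0.24, limma adjusted p = 0.13). Pfkp had 21.2 and 27.7, then 17.9, and 20.1, 24.8 and 24.6, then 13.6 and 14.0 (−0.63 ± 0.18, limma adjusted p = 0.19). Selenbp1, a methanethiol oxidase, had 1.59 and 0.99, then 0.371, and 1.46, 1.24 and 1.39, then 0.772 and 0.902 (−0.86 ± 0.25, limma adjusted p = 0.19). None was called, and 6.27% of all 7894 genes separated in this direction. All 3 persisted above NORM. Pfkp, for example, had 14.1 and 9.17 in NORM at P14 and 10.6 and 3.85 at P17. Matk, a tyrosine kinase, also persisted but was higher in every P17 library of its fraction. It had 0.926 and 0.608, then 1.96, and 0.641, 0.447 and 0.668, then 0.747 and 0.915 (0.68 ± 0.26, limma adjusted p = 0.33). Such separation held for 7.45% of all genes. Of the 13 genes higher in OIR over both days in this class, 5 were higher and 8 lower at P17. Of the 22 tested hypoxia genes 16 were lower and 6 higher (median −0.21), and 13 persisted. Over all 133 tested injury-list genes 19 faded (14.3%), 26 persisted (19.5%) and 27 were late (20.3%), against 5.03%, 2.5% and 26.5% of all genes.

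**Figure D4:**
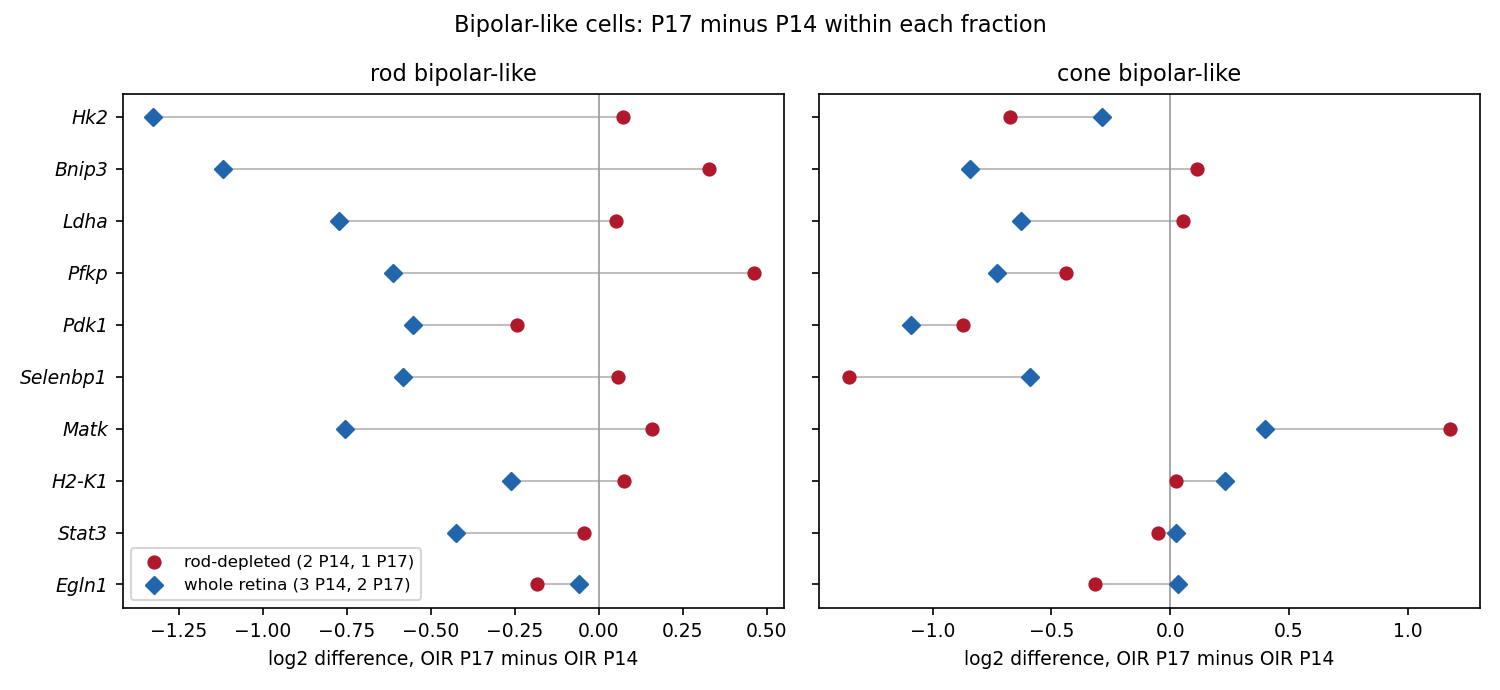
Log2 differences, OIR P17 minus OIR P14, within rod-depleted retina (circles, 2 and 1 libraries) and within whole retina (diamonds, 3 and 2 libraries) for 10 genes in rod bipolar-like and cone bipolar-like cells. In rod bipolar-like cells Hk2 had −1.33 in whole retina and 0.07 in rod-depleted retina, whereas Pdk1 in cone bipolar-like cells had −1.09 and −0.87.

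The calls of cone bipolar-like cells were 7 genes that rose (0.0887%) and 4 that fell (0.0507%). Slc38a3 (1.54 ± 0.23), the amylase Amy1 (1.3 ± 0.24), the collagen hydroxylase Leprel2 (1.2 ± 0.23), the acid-sensing channel Asic3 (1.13 ± 0.20) and Hbb-bs (2.26 ± 0.29) were among those that rose. Slc38a3 had 2.64 and 4.50, then 6.65, and 1.41, 1.23 and 1.24, then 5.39 and 5.22. In NORM it went from 5.24 to 10.7 in rod-depleted retina and from 1.90 to 3.99 in whole retina. Amy1, Leprel2, Asic3 and Hbb-bs were also higher at P17 than at P14 in NORM of each fraction. Sox4 (−1.43 ± 0.26), a factor of immature neurons, Usp9x (−1.42 ± 0.26), Rnd3 (−1.40 ± 0.26) and Mest (−1.25 ± 0.23) fell. Sox4 went from 4.14 and 3.62 to 0.631 and from 2.34, 3.14 and 2.51 to 1.54 and 1.05, and in NORM from 2.67 and 2.35 to 1.12 and 0.77. In rod-depleted and whole-retina NORM, Mest went from 2.01 to 0.249 and from 1.38 to 0.362. Rnd3 went from 0.391 up to 0.538 and from 1.29 down to 0.581 there, and Usp9x from 0.119 up to 0.264 and from 0.902 down to 0. Apart from Hbb-bs, called in 7 of 8 fits, these calls held in at most 3 of the 8 fits that left out 1 library, and the count went from 11 to between 0 and 20. With profiles centred on their median, 2 genes rose and none fell. Without P14 rod-depleted replicate 1 there were 20 calls, without replicate 2 there were 2, without any 1 whole-retina P14 library 1, without the P17 rod-depleted library 19, and without P17 whole-retina replicate 1 or 2 there were 2 or 0.

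The promoters of Adm in Müller-like cells and of Hk2 and Bnip3 in bipolar-like cells are printed because these 3 hypoxia genes stayed above NORM at both days. The sequences are RefSeq's for mouse GRCm38.p6, from 250 bases before to 50 after the gene's start, on the gene's strand and 5′ to 3′. Capitals mark ACGTG or GCGTG, the core of the hypoxia response element, on either strand (a match on the other strand reads CACGT or CACGC). A match is only a description: 43.77% of 32851 promoters of this length hold at least 1. Adm lies on the plus strand at chr7:110627407-110627706 and holds 2 matches, Hk2 on the minus strand at chr6:82774405-82774704 with 2, and Bnip3 on the minus strand at chr7:138909457-138909756 with 5, some of which overlap.
Adm: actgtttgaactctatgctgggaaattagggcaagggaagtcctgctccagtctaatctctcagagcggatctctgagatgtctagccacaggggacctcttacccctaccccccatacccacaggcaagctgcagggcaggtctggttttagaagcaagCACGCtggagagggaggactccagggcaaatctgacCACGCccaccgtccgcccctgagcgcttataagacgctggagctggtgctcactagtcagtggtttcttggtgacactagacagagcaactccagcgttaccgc
Hk2: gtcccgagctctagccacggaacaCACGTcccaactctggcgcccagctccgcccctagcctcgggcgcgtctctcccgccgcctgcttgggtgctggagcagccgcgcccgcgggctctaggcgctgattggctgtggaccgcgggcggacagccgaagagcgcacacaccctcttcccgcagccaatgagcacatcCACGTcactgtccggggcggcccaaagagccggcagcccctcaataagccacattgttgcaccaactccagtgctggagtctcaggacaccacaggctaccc
Bnip3: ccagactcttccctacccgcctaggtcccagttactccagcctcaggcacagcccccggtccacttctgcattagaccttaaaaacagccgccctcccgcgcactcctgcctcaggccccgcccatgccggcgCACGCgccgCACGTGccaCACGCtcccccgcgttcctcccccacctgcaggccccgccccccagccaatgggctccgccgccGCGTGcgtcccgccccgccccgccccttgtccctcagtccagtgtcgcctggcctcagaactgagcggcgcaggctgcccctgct

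Microglia-like cells had enough cells for comparison at P14 only in rod-depleted retina (36 and 67 cells, then 109 at P17), so their course rests on 2 libraries against 1; the P17 whole-retina libraries (20 and 21 cells) add only to the estimate of the spread. Osteopontin, Spp1, secreted by activated microglia, was 17.3 and 57.8 at P14 and 1.34 at P17, and it fell by 4.37 ± 0.64 on the log2 scale (limma adjusted p = 3.7e-06). The P17 arm is 1 library, which the fit assumes to vary like the other groups, and the P14 libraries themselves lie far apart. It was the only gene of 6576 that fell (0.0152%), and it was called in each of the 4 fits that left out 1 library and could be made. Without the P17 rod-depleted library age and fraction coincide, so dependence of the call on that library could not be tested. The call was lost with OIR and NORM libraries in 1 fit, without a filter on low values, with summed UMIs, after thinning and with a term for Xist. Whole-retina P17 libraries had 0.224 and 1.75, and NORM had 0.128 and 0.648. At a finer clustering the cells so named formed a cluster of 222 cells with P2ry12 and Csf1r among its leading genes. Another cluster, of 187 cells, was led by genes such as Cd74, Pf4, Lyz2 and Hmox1, macrophage markers among them. The part of this mix in the courses of the class was not tested.

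The other activation genes were uneven. Hmox1, haem oxygenase, was 8.38 and 31.6 at P14 and 15.3 at P17, with 4.90 and 16.9 in whole retina and 1.33 and 1.36 in NORM (−0.09 ± 0.51). Its ages overlapped, as did those of the iron store Fth1 (0.07 ± 0.32). Fth1 had 123 and 179.8, then 157, with NORM at 65.1 and 44.6. The elastase Mmp12 had 9.0 and 4.51, then 1.13, and galectin-3, Lgals3, had 7.01 and 16.6, then 2.85. Both were lower in the P17 library than in both P14 libraries, without a call (−2.31 ± 0.65, limma adjusted p = 0.65, and −1.86 ± 0.66, limma adjusted p = 1.0).

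Of 21 tested activation genes 1 fell and none rose, 13 persisted above NORM, Itgax faded, and Gpnmb, Apoe, Cst7, Cd68 and Csf1 were late. Among all 6576 genes 14.4% faded, 19.4% persisted and 35.1% were late. The homeostatic list (15 tested) had no call, 9 genes higher and 6 lower: P2ry12, the purinergic receptor of resting microglia, gave 0.28 ± 0.48, and Cst3 0.01 ± 0.31. In this class 35.4% of all genes were higher and 25.1% lower in the P17 library than in both P14 libraries, which is the background for such counts. In all 2 genes rose (0.0304%), among them the rod gene Gngt1 (3.19 ± 0.71); with centred profiles 2 rose and 2 fell. Rod markers summed to 0.591 and 0.528 at P14 and 8.21 at P17 in rod-depleted microglia-like cells, and to 68.5 and 79.1 in whole retina at P17.

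Endothelial-like cells numbered 23 and 19 at P14 and 55 at P17 in rod-depleted retina, too few for a test, and their values are summed UMIs per 10000 with exact Poisson intervals that cover counting error only. Esm1, a tip-cell marker, had 0.855 (0.344 to 1.76) and 0.326 (0.0394 to 1.18) at P14 and 5.70 (4.56 to 7.04) at P17. Apln had 3.67 (2.47 to 5.23) and 1.79 (0.894 to 3.21), then 14.0 (12.2 to 16.0). Angpt2, which loosens vessels for sprouting, had 1.34 (0.671 to 2.4) and 0.977 (0.359 to 2.13), then 6.50 (5.27 to 7.92). For all 3 the P17 interval lay above both P14 intervals. NORM had 0.0531 and 0.259 of Esm1, 2.23 and 0.346 of Apln and 0.478 and 0.519 of Angpt2 at P14 and P17. The VEGF receptor Kdr, at 9.16 and 10.7, then 9.68, had overlapping intervals. RNA of other cells moved with them: between the first P14 library and P17 haemoglobin went from 0.188 to 106, pericyte markers from 0.436 to 21.3 and cone markers from 2.57 to 12.4. Their part in these differences was not tested.

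**Figure D5:**
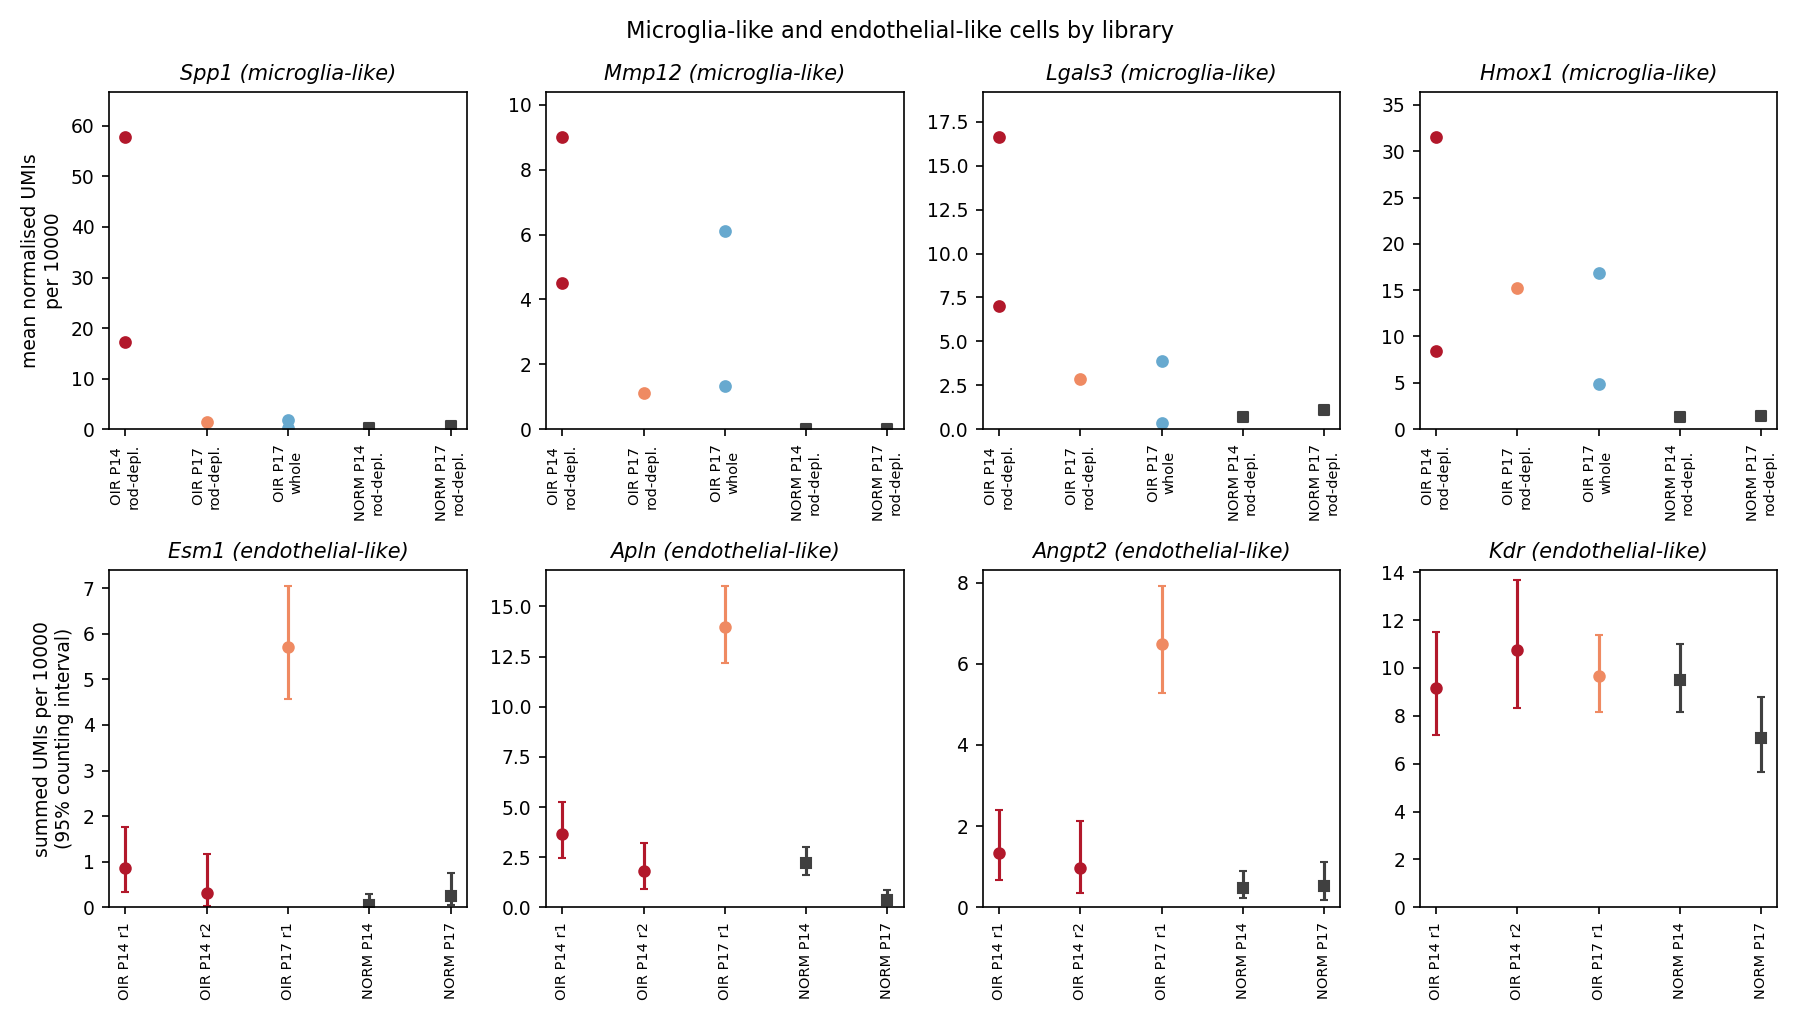
Top, levels of 4 activation genes in microglia-like cells as mean normalised UMIs per 10000, 1 point per library; bottom, summed UMIs per 10000 of 4 genes in endothelial-like cells of rod-depleted libraries with 95% Poisson intervals. Spp1 was 17.3 and 57.8 at P14 and 1.34 at P17, whereas Esm1 was 0.855 and 0.326 at P14 and 5.70 at P17.

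In astrocyte-like cells the acute-phase gene Lcn2 differed between the P14 replicates themselves. It had 202 per 10000 (193.55 to 211.71, from 1931 UMIs in 25 cells) in rod-depleted replicate 2 and 0.176 in replicate 1, and 0.177 at P17. The chitinase-like Chi3l1 had 51.4 and 4.39 in these P14 libraries and 4.78 at P17. No direction of age can be read from either.

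Cone-like cells had 2 genes that rose (0.0288% of 6941) and none that fell, with 328 at an unadjusted p under 0.05. Cone arrestin, Arr3, which quenches the light response, had 63.1 and 47.4, then 134, and 41.3, 41.6 and 39.1, then 148 and 126 (1.58 ± 0.17, limma adjusted p = 8.5e-07). It was called in all 8 fits that left out 1 library. NORM had 59.0 and 48.8 at P14 and 99.2 and 80.0 at P17, and the interaction was not called. Gckr, the glucokinase regulator, rose from 5.79 and 6.65 to 13 and from 3.01, 3.98 and 3.73 to 9.37 and 8.96 (1.22 ± 0.24, limma adjusted p = 0.046), a call kept in 2 of 8 such fits.

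Rod-like cells could be compared in whole retina only (3 and 2 libraries), where 152 of 6892 genes rose (2.21%) and 106 fell (1.54%). The classes were made of different clusters: 98.4% of the P14 cells lay in 1 cluster and 94.1% of the P17 cells in another, and median depth was 564, 514.5 and 587 UMIs at P14 and 1072.5 and 1107 at P17. At a finer clustering the 258 calls became 18, and without P17 whole-retina replicate 1 or 2 they became 9 or 13. Without P14 replicate 1 they became 644, without replicate 2 115 and without replicate 3 112. Without both libraries with lens RNA, in which crystallins summed to 24.3 and 30.6 in this class, there were 1598, and after thinning 127.

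Of 15 immediate early genes tested in rod-like cells 5 fell and none rose, and 13 had a negative difference (median −0.64). Egr1 had 4.72, 6.52 and 6.20, then 1.19 and 1.07 (−2.16 ± 0.19, limma adjusted p = 0.0004), and Jun 5.76, 5.82 and 6.81, then 1.83 and 1.24 (−1.88 ± 0.20). Both were called in all 5 fits that left out 1 library. In NORM whole retina Egr1 went from 9.53 to 1.08. Junb (−1.31 ± 0.23), Fos (−1.05 ± 0.20) and Fosb (−0.89 ± 0.21) also fell.

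Heat-shock genes Hspa1a (0.912, 0.985 and 0.927, then 4.53 and 3.89; 1.95 ± 0.19) and Hspa1b (1.74 ± 0.27) rose, while Hspa1a in NORM whole retina was 0.916 and 0.809. They were the only calls among 9 tested heat-shock genes, of which 3 were higher and 6 lower (median −0.18), and the summed level of that list was 41.7, 45.9 and 36.8, then 40.8 and 37.0. Impg1, a protein of the matrix around photoreceptors, fell from 7.57, 6.52 and 8.45 to 2.02 and 2.14 (−1.75 ± 0.18). The phototransduction regulator Guca1a rose (2.44 ± 0.42), as did the transcription factor Mef2c (1.66 ± 0.22) and Gckr (1.60 ± 0.24). Among hexokinases, Hk1 fell (7.01, 8.16 and 8.55, then 3.85 and 4.07; −0.96 ± 0.17) and Hk2 rose (1.28, 0.958 and 0.481, then 2.36 and 1.97; 1.16 ± 0.29). The aldolase Aldoc (1.23 ± 0.19) and Tpi1 (0.67 ± 0.17) rose with Hk2, so that of 20 glycolytic genes tested 3 were called higher and 1 lower, with 12 higher and 8 lower in all (median 0.12), against 2.21% and 1.54% called among all genes. Egr1, Jun, Impg1 and Hspa1a kept their call in each leave-one-out fit, but Hk2, Fos, Fosb and Tpi1 kept it in 1 of 5. Against NORM, 874 genes (12.9%) had a higher and 310 (4.57%) a lower course in rod-like cells. That NORM course rests on 1 whole-retina library at each age, with median depths of 537 UMIs at P14 and 331 at P17. The NORM P17 rod-depleted library (37 cells) was the only one of its fraction in the fit and adds nothing to it.

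Ganglion-like cells, the output neurons, were compared in 3 libraries at each age, with 21 to 58 cells in a library; 15 of 7845 genes rose (0.191%) and 8 fell (0.102%). Penk, the enkephalin precursor, had 0, then 3.43, in rod-depleted retina and 0.435 and 1.06, then 2.77 and 4.64, in whole retina (2.78 ± 0.42, limma adjusted p = 2e-07), and was called in all 6 leave-one-out fits. Aldoc had 2.91, then 7.25, and 2.10 and 3.19, then 8.28 and 9.15 (1.54 ± 0.30). It was joined by Tpi1 (1.3 ± 0.27) and Aldoa (0.91 ± 0.23), so that 3 of 21 glycolytic genes rose and 17 were higher (median 0.59). In 10 of the 21 all P17 libraries lay above those of P14 in their fraction, against 11.1% of all genes.

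The immediate early genes Junb (1.76 ± 0.38), Ier3 (1.91 ± 0.47) and Cyr61 (2.21 ± 0.56) rose, as did Sod1 (1.70 ± 0.34), the superoxide dismutase, and Apoe (1.72 ± 0.44). Among the genes that fell were Dpysl3, an axon-growth protein (6.23, then 1.05, and 5.78 and 7.00, then 3.31 and 2.19; −1.57 ± 0.32), the synaptic Cplx2 (−1.20 ± 0.27), calretinin, Calb2 (−0.81 ± 0.19), and the long noncoding Meg3 (−0.68 ± 0.14). RNA of other cells moved as well: rod markers summed to 8.98 and 13.4 at P14 and 38.6 and 23.3 at P17 in whole-retina ganglion-like cells. Müller markers there summed to 6.19 and 5.49, then 16.9 and 11.1. The part of rod and Müller RNA in these calls was not tested. Astrocyte markers summed to 3.68, then 7.58, in rod-depleted retina and 2.75 and 3.37, then 8.31 and 9.98, in whole retina. Aldoc is itself on the astrocyte list. It made up 2.91, then 7.25, and 2.10 and 3.19, then 8.28 and 9.15, of these sums, which therefore do not show that astrocyte RNA moved. Xist, too, was called lower (−1.965 ± 0.397), although its ages overlapped. It had 12.9, then 17.9, in rod-depleted retina and 16.3 and 0, then 0 and 0, in whole retina. The SE of Xist reflects the trend over all genes rather than this spread of its own. In the added test of the fractions, chosen after seeing the data, 10 genes (0.127%) had a higher and 22 (0.28%) a lower course in whole retina than in rod-depleted retina. As each age was 1 library in rod-depleted retina, these lone libraries were assumed to vary like the others, and the 32 calls became 3 to 18 when 1 whole-retina library was left out, so no difference between the fractions is drawn from them. Without P14 rod-depleted replicate 2 there were 92 calls and without P17 rod-depleted replicate 1 there were 85. Without either whole-retina P14 library there were 5, without P17 whole-retina replicate 1 there were 11 and without replicate 2 there were 13.

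In amacrine-like cells the only 4 called genes were haemoglobins (0.0486% of 8224): Hbb-bs, Hba-a1, Hba-a2 and Hbb-bt rose by 4.43 to 5.24. Without cells in which haemoglobin made up 1% or more of the UMIs, an analysis added after seeing the data, no gene was called, while 627 had an unadjusted p under 0.05 in the full set. Glycolytic genes were mostly higher (18 of 21, median 0.28) and none was called. Against NORM, the haemoglobin Hbb-bt had a higher course (0.0123% of genes tested) and 2 genes, among them the rod gene Pde6g, a lower one (0.0245%).

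The shares of the classes did not pass an adjusted threshold (exact two-sided permutation test within fractions, smallest possible p 0.0333, adjusted p from 0.533 to 0.933). Müller-like cells were 20.9% and 19.9% of rod-depleted cells at P14 and 14.5% at P17, and 7.04%, 9.66% and 8.70%, then 5.40% and 8.67%, of whole-retina cells (p = 0.0667, exact). Their mean change of −3.68 percentage points over the fractions turned to 0.787 with the finer clustering. Microglia-like cells were 1.86% and 3.70%, then 5.62%, pericyte-like cells 3.16% and 2.54%, then 5.98%, and endothelial-like cells 1.19% and 1.05%, then 2.84%, of rod-depleted libraries. All 3 were larger in the single P17 library than in both P14 libraries. In whole retina endothelial-like cells went the other way (0.251%, 0.302% and 0.609%, then 0.088% and 0.163%), pericyte-like cells had 0.314%, 0.388% and 0.942%, then 0.117% and 0.325%, and microglia-like cells had 0.566%, 0.690% and 0.609%, then 0.587% and 0.854%. These are shares of dissociated cells after rod depletion, which can set them.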

How the data were processed

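Single cells of whole or rod-depleted mouse retina were measured by Drop-seq. The deposited table of 21408 genes holds natural log values, per cell ln(1 + UMIs per 10000 UMIs), made by the authors; the log was undone here, and all non-zero values then gave whole UMIs (tolerance 0.05). STAR 2.4.0, bcl2fastq and mm10 are named in the submitters' processing notes. Of 31271 cell columns, 25472 matched 12 samples, and 5799 in 7 sets were not used. Cells with under 200 genes were dropped and doublets were not called. Cells were clustered on 2000 variable genes, 30 components and 15 neighbours (Leiden, leidenalg 0.10.2, resolution 1). Clusters were named by markers, and those with 2 types' markers were left unnamed. For each class, levels were averaged per library with at least 20 cells and taken as log2(level + 0.2). They were tested with limma 3.58.1 (trend, terms for age and fraction, Benjamini-Hochberg adjustment) on genes with a mean of at least 0.2 and above 0 in at least 3 libraries. The interaction was fitted on those of the 12 libraries, OIR and NORM, that had at least 20 cells of the class. Shares were tested by exact permutation within fractions. The scripts were tested on simulated libraries with known changes, at a set spread between libraries. Of 4-fold changes 79% were recovered in Müller-like, 67% in cone bipolar-like, 61% in rod bipolar-like, 54% in rod-like and 49% in ganglion-like cells. Of 2-fold changes 9%, 6%, 8%, 6% and 7% were recovered in the same classes. In microglia-like cells 0% of either size was recovered.

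Named genes were up to 8 called genes per class and direction by size among those with no overlap of the ages in any fraction (ribosomal, mitochondrial and predicted genes left out), called genes of the injury lists, and a fixed list for Müller-like, bipolar-like, microglia-like, endothelial-like and astrocyte-like cells. Some genes that the rule names are not reported here. The members and lists were chosen with earlier results of these data known. Alternatives covered scaling, filter, pseudocount, clustering, thinning, replicate block and leaving out each library.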

Additional observations from a re-analysis of the deposited data

Results flagged for a closer look

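In Müller-like cells 5 genes had an OIR course that differed from the NORM course by limma's interaction test, fitted with all 12 libraries (5 OIR and 2 NORM at P14, 3 OIR and 2 NORM at P17). The difference was 3.73 ± 0.47 (SE) on the log2 scale for Socs3, 3.75 ± 0.61 for Maff, 3.12 ± 0.40 for Atf3, 2.54 ± 0.40 for Ddit3 and 2.73 ± 0.44 for Coq10b. Maff in OIR had 8.49 and 7.25, then 1.67, in rod-depleted retina and 4.87, 4.36 and 3.79, then 3.90 and 5.99, in whole retina, while NORM had 8.17, then 0.211, and 4.05, then 0. Ddit3 had 8.86 and 5.14, then 5.93, and 3.73, 4.01 and 4.57, then 5.60 and 5.46, with NORM at 6.59, then 1.21, and 6.17, then 0.994. Coq10b had 2.4 and 2.73, then 1.54, and 1.27, 1.57 and 1.95, then 1.59 and 2.0, with NORM at 3.91, then 0.302, and 2.11, then 0.162. In each of the 5 both NORM libraries of P17 lay below every OIR library.

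In amacrine-like cells the OIR course minus the NORM course was 4.83 for the haemoglobin Hbb-bt and −3.44 for the rod gene Pde6g. Rod markers summed in this class to 123 per 10000 in the NORM P17 whole-retina library.

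In ganglion-like cells the whole-retina course of Meg3 minus its rod-depleted course was −0.70 ± 0.15 by limma's test of the fractions' difference, added after seeing the data. The rod-depleted course is 1 library against 1 with no spread of its own, so the value does not show that the fractions differ. Meg3 had 333, then 287, in the 1 library of each age from rod-depleted retina and 232 and 234, then 123 and 124, in whole retina.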

How the results depend on the processing

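Calls of P17 against P14 depended on the settings more than the direction of single genes did. Of 2367 values of 118 named genes under the alternatives, 1765 kept their side of the threshold, 597 lost the call, 5 gained one and 0 called ones reversed. Among the 1765, 53 values of uncalled genes changed sign. The causes were not tested. In Müller-like cells (18 calls) there were 0 with all 12 libraries in 1 fit, 0 with no filter, 9 after thinning to 300 UMIs and 0 without both libraries with lens RNA. In amacrine-like cells (4) there were 0 with no filter, 7 thinned, 23 in whole retina only and 0 without haemoglobin-rich cells. In cone-like cells (2) there was 1 with all 12 libraries, centring, no filter, summed UMIs, a term for Xist, thinning or no lens libraries, 4 with a pseudocount of 0.5, and 11 in whole retina only. In cone bipolar-like cells (11) there were 2 with the finer clustering, all 12 libraries, centring or without haemoglobin-rich cells, 0 with no filter, thinning or no lens libraries, 21 with summed UMIs, 7 with a term for Xist and 85 in whole retina only. In ganglion-like cells (23) there were 7 with no filter, 5 with summed UMIs (2 higher and 3 lower) or a term for Xist, 1 thinned and 89 in whole retina only. In microglia-like cells (3) there were 1151 with no filter, 1 with a pseudocount of 0.5 or 1, and 0 with OIR and NORM libraries in 1 fit, summed UMIs, a term for Xist or thinning. In rod-like cells (258) there were 18 with the finer clustering, 0 with no filter, 127 thinned and 1598 without lens libraries. In rod bipolar-like cells (0) there were 2 with the lens-mixed clusters included and 2 in whole retina only. Interaction calls after thinning were 6 in amacrine-like and 11 in cone-like cells. The alternatives with lens RNA, Xist, haemoglobin-rich cells and the fractions' difference were chosen after seeing the data.

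The replicate numbers do not pair the libraries: deviations of same-numbered whole-retina libraries correlated at −0.20 to 0.011. With the number as a replicate block the calls were 1 in Müller-like, 1 in cone-like, 2 in cone bipolar-like and 2 in rod bipolar-like cells.

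Leaving out each library in turn gave 0 to 44 calls in Müller-like, 3 to 6 in amacrine-like, 0 to 20 in cone bipolar-like, 1 to 6 in cone-like, 5 to 92 in ganglion-like, 1 to 6 in microglia-like, 0 to 2 in rod bipolar-like and 9 to 644 in rod-like cells. For microglia-like cells the fit without the P17 rod-depleted library could not be made. Interaction calls ranged from 3 to 1667 in Müller-like, 1 to 96 in amacrine-like, 0 to 688 in cone bipolar-like, 0 to 582 in cone-like, 0 to 184 in rod bipolar-like and 309 to 1695 in rod-like cells, with 1667 in Müller-like cells without the NORM P17 rod-depleted library. Calls of the fractions' difference ranged from 1 to 55 in Müller-like, 0 to 537 in amacrine-like, 0 to 249 in cone bipolar-like, 1 to 603 in cone-like, 3 to 18 in ganglion-like and 0 to 1 in rod bipolar-like cells.

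The change of share, in percentage points, turned to 0.787 for Müller-like cells with the finer clustering and to −2.18 for rod-like cells with the lens-mixed clusters included. Over the libraries left out it ranged from −4.50 to −1.43 for Müller-like, −2.69 to 1.12 for amacrine-like, 0.161 to 0.413 for astrocyte-like, 0.810 to 7.09 for cone bipolar-like, −3.61 to 1.06 for cone-like, −0.262 to 0.782 for endothelial-like, −0.464 to 0.978 for ganglion-like, 0.0649 to 0.368 for horizontal-like, 0.0989 to 1.93 for microglia-like, −0.327 to 1.56 for pericyte-like, 1.27 to 8.69 for rod bipolar-like and −0.505 to 6.18 for rod-like cells.

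With a log2 difference above 1 in place of every library being above NORM, the faded, persistent and late injury genes numbered 5, 6 and 28 in Müller-like, 1, 2 and 9 in amacrine-like, 3, 1 and 3 in cone-like, 6, 6 and 11 in cone bipolar-like, 31, 22 and 26 in microglia-like and 9, 4 and 5 in rod bipolar-like cells, with 13 faded and 3 persistent in rod-like cells.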

Other observations

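The following genes of the fixed lists were not called. In rod bipolar-like cells Stat3, the transcription factor of cytokine signalling, differed by −0.29 ± 0.26 between the ages, the oxygen sensor Egln1 by −0.10 ± 0.33, and H2-K1 by −0.14 ± 0.27, with overlapping ages in whole retina. Matk (−0.43 ± 0.28) and Selenbp1 (−0.36 ± 0.24) overlapped in rod-depleted retina only. In whole retina Matk had 1.31, 1.63 and 1.41, then 0.604 and 0.982, and Selenbp1 1.34, 0.946 and 1.05, then 0.637 and 0.700. A2m (−0.70 ± 0.30) and Pdk1 (−0.44 ± 0.23) had no P17 library above a P14 library of the same fraction, although A2m was 0.233 in 1 rod-depleted library of each age, and both were above NORM of the same fraction and age in every OIR library. In cone bipolar-like cells Hk2 differed by −0.42 ± 0.25, Bnip3 by −0.50 ± 0.22 and Ldha by −0.38 ± 0.20.

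In microglia-like cells the lipoprotein lipase Lpl had 7.04 and 9.35 at P14 and 3.64 at P17 in rod-depleted retina (−1.11 ± 0.53), with 7.83 and 9.52 in whole retina at P17 and no whole-retina library at P14 with enough cells. In rod-depleted retina the fatty-acid carrier Fabp5 had 2.14 and 4.24, then 2.08, and the complement gene C1qa had 47.2 and 49.8, then 47.1. Plvap, a protein of fenestrated endothelium, had 0.122 and 1.63 in endothelial-like cells at P14 and 0.0663 at P17, from 1, 10 and 1 UMIs.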
